A study of Bos taurus with 16 samples.

Results

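A set of 10 genes of early lineage formation, among the 27393 loci of the series, was followed through bovine development from the mature oocyte to the blastocyst. They are the hypoblast transcription factors GATA4, GATA6 and SOX17, the hypoblast receptor PDGFRA, the growth factor FGF4 with the receptors FGFR1 and FGFR2, and the matrix genes LAMA1, LAMC1 and FN1. Each gene was taken by its name at the deposited locus of that name. FGFR1 alone had 3 such loci, of which the one with the highest mean held 41 reads and the others 6 and 2. The series holds 16 RNA-Seq samples, each a single oocyte or embryo matured or developed in vivo, with 2 samples at each of 8 stages. The stages are mature oocytes (MII), 2-, 4-, 8- and 16-cell embryos (2C, 4C, 8C and 16C), early morulae (EM), compact morulae (CM) and blastocysts (BL). The labels name no treatment or genetic change. The 6 samples of MII, 2C and 4C lie before the major embryonic genome activation (EGA) of cattle, and the 10 samples from 8C to BL lie after it.

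The inner cell mass of the mammalian blastocyst divides into the epiblast, which forms the fetus, and the hypoblast, which lines the blastocoel and forms yolk sac endoderm. In mouse embryos FGF4 from epiblast precursors acts through FGF receptors and the MAP kinase relay to sustain GATA6, and GATA6 acts upstream of PDGFRA, SOX17 and GATA4. Hypoblast cells then lay down a basement membrane of laminin, collagen IV and nidogen, while fibronectin is a matrix protein bound by integrins.

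Reads were recovered from the deposited scaled counts and are given as CPM, the reads of a locus per 1000000 reads of its sample. Gene lengths do not enter CPM, and levels were therefore compared between stages. Where a gene's share of a marker sum or GATA6 reads per PDGFRA read are given, they are shares of reads, not corrected for length. Total reads ran from 607672 to 3379426 per sample, so that 3 reads, taken as the detection floor, corresponded to 0.888 to 4.94 CPM. A gene at 0 was therefore not detectable at this depth, or was not counted. The longest run of consecutive loci at 0 in every sample held 2578 loci, with FGF5 and HRAS of the lists below among them and none of the 10 genes. Such floors, and the intervals of pooled ratios below, cover counting error only. They leave out the spread between embryos, and copies made by amplification were not told apart. The list of 9 oocyte markers, most of it H1FOO and with BMP15 at 0 throughout, summed to between 3060 and 10074 CPM in the 6 samples before EGA. At 8C it summed to 26.0 CPM in replicate 1 and 1466 CPM in replicate 2 (H1FOO 21.0 and 1347 CPM), and at later stages to at most 56.4 CPM. Because 8C replicate 2 stood apart in this way, results that rest on it are given with and without it. The list of 8 trophectoderm markers summed to 1464 and 1322 CPM in the BL samples and to at most 421 CPM in the other 14. KRT8 and KRT18 held most of the BL sum (means of 514.5 and 377.5 CPM), whereas CDX2, a defining trophectoderm factor, had 1 read in the series and none at BL, and ELF3 had none. Whole embryos were sequenced, so fewer cells of a type and less RNA per cell cannot be told apart. The cumulus and granulosa list summed to 564 to 1989 CPM before EGA and 382 to 874 CPM after it, with INHA, AMH and FOXL2 at 0 in all samples. STAR alone made up most of that sum, with 443 to 1727 CPM before EGA and 379 to 842 CPM after it. The blood and stroma list stayed at or below 39.5 CPM, with HBB and HBA at 0, and the oviduct and uterine epithelium list ran from 1.78 to 174 CPM, with FOXJ1 at 0. 2C replicate 1 stood apart in OVGP1, the oviduct glycoprotein, with 75.2 CPM beside at most 1.92 in the other 15 samples, and in DCN, a stromal gene, with 11.3 CPM beside 0 in 2C replicate 2. 16C replicate 2 had more of the epithelial and trophectoderm markers than 16C replicate 1, with 102 and 3.86 CPM of KRT8, 113.5 and 11.6 of KRT18, 169.5 and 37.9 of EPCAM, and 52.7 and 13.1 of GATA2. The epiblast list summed to 123 to 304 CPM before EGA and 3945 to 7600 CPM after it. The sum was highest at 8C, where POU5F1 and KLF17 held most of it (means of 4326 and 2131 CPM). POU5F1 alone held most of it at BL (3521 CPM), whereas SOX2 never exceeded 12.3 CPM and FGF4 had 1 read in the series.

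GATA6 was nearly silent before EGA and abundant from 8C on. It had 0.443 and 0.877 CPM in the MII samples, 5.99 and 0 at 2C and 0 in both 4C samples. The 2C replicate with GATA6 reads was the one with OVGP1 and DCN, whose part was not tested. It then had 117.5 and 100 CPM at 8C, 134 and 399.9 at 16C (the higher value in the replicate with more KRT8 and EPCAM, whose part was not tested), 301 and 476 at EM, 251 and 231 at CM, and 166.0 and 165.9 at BL. All 10 samples after EGA lay above all 6 before it, a separation shown upward by 18.4% of the 6910 loci tested. The mean was 109 ± 12.4 CPM at 8C, 388 ± 124 at EM and 166 ± 0.0946 at BL (SD, n = 2). In that order of means, EM, 16C and CM overlapped their neighbours, whereas CM lay above BL and BL above 8C without overlap. Pooled over samples, 12 of 12487803 reads before EGA became 2694 reads after it, a CPM ratio of 258 (95% interval 148 to 500.5). Of the 12 reads, 9 were from 2C replicate 1, and without that sample 3 of 10985390 reads remained and the ratio was 909 (311 to 4410). Between 4C, with 0 reads, and 8C the pooled level was at least 110-fold higher, against a floor of 3 reads over the 4C samples.

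The other hypoblast transcription factors were scarcely detected. GATA4, which shares targets with GATA6, had a single read in the whole series, in BL replicate 1. The 0 reads of GATA4 before EGA allow a level of up to 0.240 CPM there. SOX17, an endoderm factor of the SOX family, had 21 reads in 5 samples, with 3.10 CPM in MII replicate 1, 2.00 in 2C replicate 1, 11.5 in 16C replicate 2, and 1.96 and 2.94 in the BL samples. Both BL samples thus held SOX17 reads, 2 in each, which is below the floor of 3. The highest value, at 16C, was in the replicate with more KRT8, KRT18 and EPCAM, whose part was not tested. The exact two-sided permutation test of BL against the other 14 samples gave p = 0.625 for SOX17. For GATA4 the same exact permutation test gave p = 0.125, the value that any single read in a BL sample gives.

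**Figure D1:**
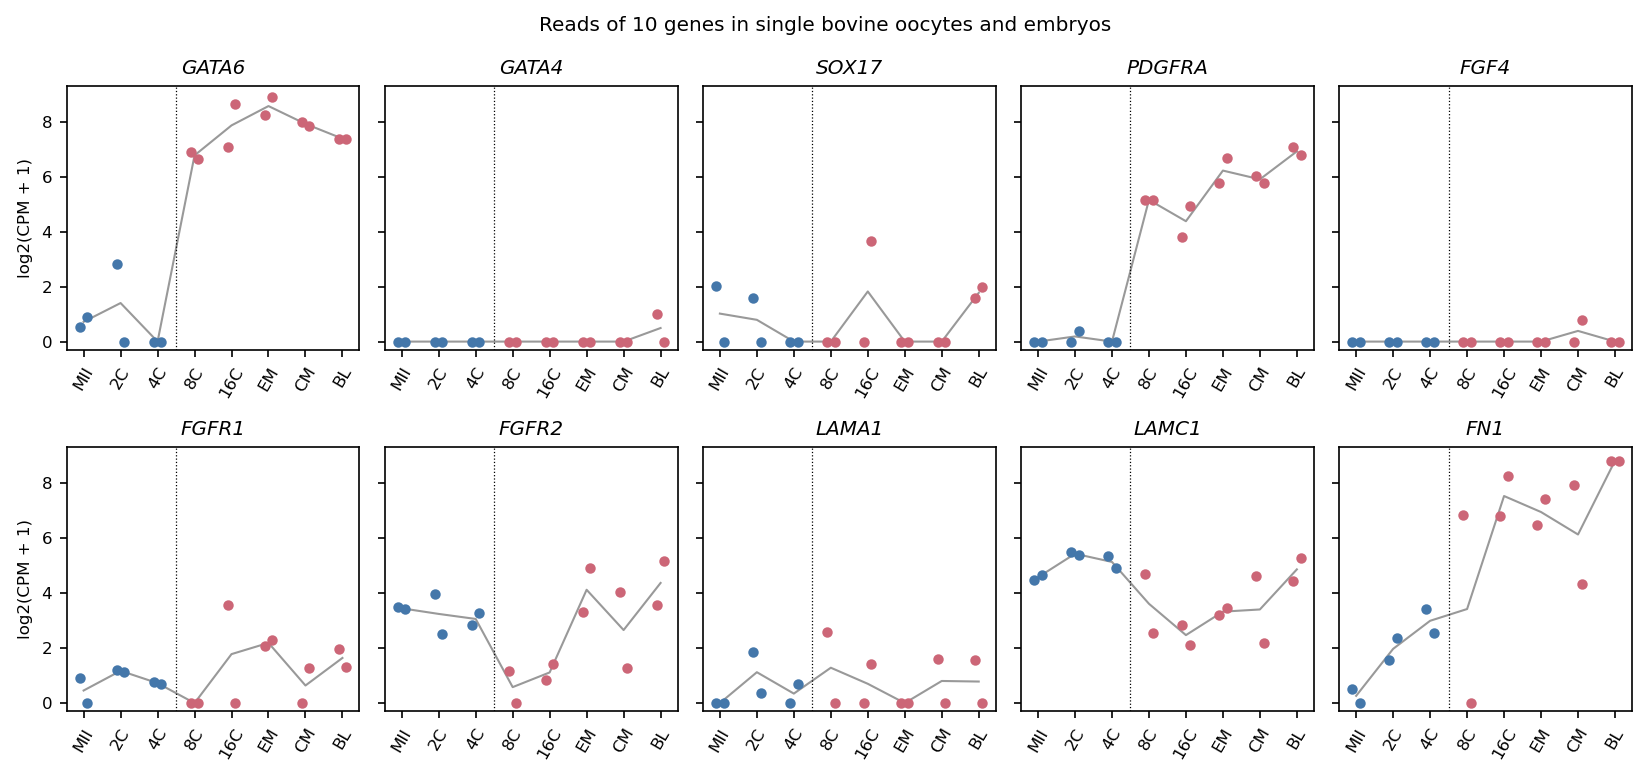
Level of each of the 10 genes as log2(CPM + 1) (vertical axis) by stage (horizontal axis). Points are single samples (blue before EGA, red after it), grey lines join stage means and the dotted line marks EGA. GATA6 and PDGFRA stepped up at 8C, FN1 was split at 8C (114 and 0 CPM), FGFR2 was lowest at 8C and 16C, and GATA4 and FGF4 had 1 read each.

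PDGFRA, the receptor for PDGF-A on hypoblast cells, stepped up with GATA6 at 8C. Before EGA it had a single read, in 2C replicate 2 (0.296 CPM), and 0 in the other 5 samples. The 8C samples had 34.65 and 34.63 CPM, those of 16C 13.1 and 29.6, EM 53.9 and 100.2, CM 64.6 and 53.5, and BL 133 and 109. Every sample after EGA again lay above every sample before it, and both BL samples lay above all others. The pooled level at 8C was at least 35.4-fold above that of 4C, where no PDGFRA read was found. With 1 read before and 693 after EGA, the pooled ratio was 797, with a counting interval of 143 to 31534. Without 2C replicate 2, which held that read, the level was at least 194-fold higher against a floor of 3 reads over the samples before.

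GATA6 and PDGFRA had different courses after EGA, a comparison made after their values were seen. Within single samples, GATA6 reads per PDGFRA read numbered 3.39 and 2.89 at 8C, 10.2 and 13.5 at 16C, 5.58 and 4.75 at EM, 3.89 and 4.32 at CM, and 1.25 and 1.53 at BL. The ratio was highest at 16C and lowest at BL, and the pairs of the 5 stages did not overlap. No test was run on it. PDGFA, a ligand of PDGFRA, was 0 in both MII samples, lay between 2.48 and 18.1 CPM from 2C to CM, and had 28.5 and 16.1 CPM at BL. Its stage effect passed the limma test (adjusted p = 0.00476). Its BL value against the 7 earlier stages did not (log2 change 1.64 ± 0.61 SE, limma adjusted p = 0.0546). That result turned on the setting: it passed with edgeR (0.0254), DESeq2 (0.0487) and a pseudocount of 5 (0.0468). It also passed in limma without 8C replicate 1 (adjusted p = 0.0449), 8C replicate 2 (0.0267), 16C replicate 2 (0.0459) or CM replicate 1 (0.0465). Of the 5 other PDGF genes listed, PDGFA alone had enough reads to be tested.

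**Figure D2:**
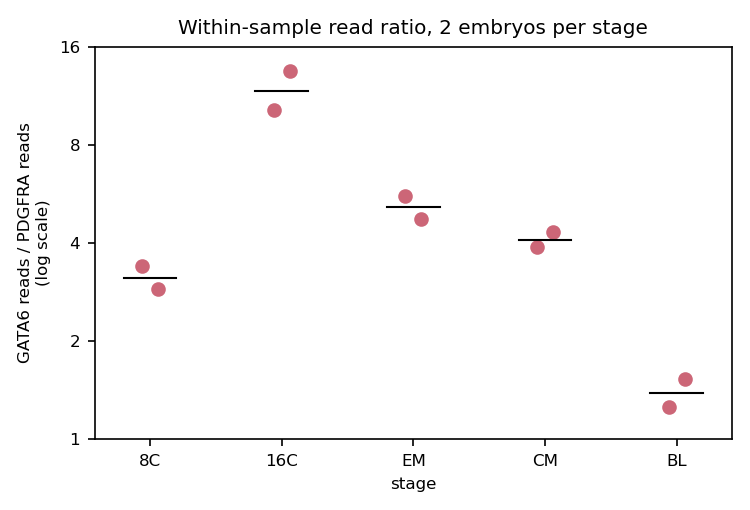
GATA6 reads divided by PDGFRA reads (vertical axis, log scale) at each stage after EGA (horizontal axis). Points are single embryos and bars are geometric means of 2. The ratio was 10.2 and 13.5 at 16C and 1.25 and 1.53 at BL.

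FGF4, the ligand that drives hypoblast formation in mouse embryos, had a single read in the series, in CM replicate 2 (0.714 CPM). The BL samples held 0 of 1699432 reads, which allows a pooled level of up to 1.77 CPM. NANOG, a marker of the epiblast, was found in these same blastocysts at 54.0 and 73.4 CPM, whereas SOX2, another epiblast marker, had 1 read in each (0.982 and 1.47 CPM). NANOG was not particular to BL, with 4.95 and 71.2 CPM at 8C and 22.1 and 43.2 CPM at EM. Among the other 21 FGF ligands listed, 9 were at 0 in every sample, FGF5 of the run of empty loci among them, and 7 reached 3 reads in a sample. FGF1, a broadly acting ligand, was higher after EGA (log2 change 6.14 ± 0.66 SE, limma adjusted p = 7.161e-08). FGF1 was kept for testing by the samples after EGA and would not have been by those before, so its p-value is a description. It ran from 0 to 36.9 CPM before EGA and from 248 to 1403 CPM after it, with no overlap. FGF2, another broadly acting ligand, fell by 1.30 ± 0.49 SE on the log2 scale (limma adjusted p = 0.0231), with a mean of 75.4 CPM before EGA and 36.7 CPM after it. Its stage means were 21.1 CPM at MII, 127 at 4C and 77.3 at 8C, so the oocytes lay below 8C. The FGF2 call was lost with scaling to total reads (adjusted p = 0.152) and without 2C replicate 2 (0.0585), 4C replicate 1 (0.0696) or 4C replicate 2 (0.0595). FGF16 had 4.86 to 13.1 CPM in the 6 samples before EGA, 8.66 in 8C replicate 2, and 0 in the other 9 samples.

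FGFR2, one of the receptors that receive FGF signals, was present before EGA, nearly lost at 8C and 16C and present again from EM. Its levels were 10.2 and 9.64 CPM at MII, 14.6 and 4.74 at 2C, 6.25 and 8.60 at 4C, 1.24 and 0 at 8C, and 0.773 and 1.65 at 16C. They were 8.99 and 29.3 CPM at EM, 15.4 and 1.43 at CM, and 10.8 and 35.2 at BL. The 4 samples of 8C and 16C lay below all samples before EGA, and CM replicate 2 fell among them. The 8C and 16C samples held 1, 0, 1 and 1 reads. The drop from 4C to 8C passed the limma test (log2 change -2.68 ± 0.96 SE, adjusted p = 0.0391). That call was lost in 11 of 24 alternatives, among them edgeR (adjusted p = 0.0831) and DESeq2 (0.0953). Of single libraries, it was lost without 4C replicate 1 (0.116), 4C replicate 2 (0.172), 8C replicate 2 (0.188), EM replicate 1 (0.0523), MII replicate 1 (0.0519) or MII replicate 2 (0.0529).

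FGFR1, the other receptor followed, had 41 reads in 11 samples. It ran from 0 to 1.33 CPM before EGA, was 0 in both 8C samples and reached 10.8 CPM in 16C replicate 1 beside 0 in 16C replicate 2. The EM samples had 3.27 and 3.88 CPM, and the BL samples 2.95 and 1.47 CPM. The exact two-sided permutation test of samples after against before EGA gave p = 0.295, with 0.000125 as the smallest p it allows. FGFR4, a related receptor, was at 0 in all 6 samples before EGA and between 1.65 and 24.4 CPM in the 10 after it. Its pooled level after EGA was at least 53.7-fold higher against a floor of 3 reads over the samples before. FGFR3 had reads in BL replicate 2 alone (4.40 CPM).

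Of 6 FGF receptors and cofactors tested over EGA, 2 rose and 3 fell, with a median log2 change of -0.77. Of all loci tested, 36.9% passed as higher and 29.9% as lower (66.8% in all), with a median of 0.23. Loci were kept for this comparison by their level in any 6 samples, and 57.1% of those tested would not have been kept by the samples before EGA alone. A gene near 0 before EGA was thus tested only where it was high after it. Counts of rises, and p-values of rises from near 0, are descriptions here and in the lists that follow. SDC4, a syndecan that carries heparan sulfate, rose by 6.09 ± 0.58 SE (limma adjusted p = 1.297e-08). EXT2, which polymerises heparan sulfate, fell by 5.48 ± 0.58 on the log2 scale, and GPC4, a glypican, fell by 4.19 ± 0.41. EXT2 still had 75.0 CPM in 8C replicate 2 beside 2.48 in replicate 1. SDC1 had 18.7 and 17.6 CPM at BL and at most 1.43 CPM in the other 14 samples. SDC1 had 31 of its 34 reads at BL and was kept for testing through BL alone, so that a change from CM could only be upward (log2 change 3.57 ± 0.65, limma adjusted p = 0.00439). That call was lost with edgeR (0.311), with CM and BL fitted alone (0.0528) and without CM replicate 1 (0.0635).

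Of 13 genes of the FGF to MAP kinase relay tested over EGA, 2 rose and 6 fell, a share near the 66.8% of all loci that passed, with a median log2 change of -1.16. GRB2, the adaptor, rose by 2.88 ± 0.45 SE, and MAP2K2, a MAP kinase kinase, rose by 2.35 ± 0.58. SOS1, the exchange factor that activates RAS, fell by 3.19 ± 0.46, and SHC1, an adaptor, fell by 2.60 ± 0.41. Among 8 targets and inhibitors tested, 2 rose and 3 fell, again near that 66.8%, with a median of 0.15. The immediate early genes EGR1 and FOS rose by 5.51 ± 0.66 and 3.18 ± 0.46. The feedback inhibitor SPRY1 fell by 4.16 ± 0.80 and was 0 in all CM and BL samples, whereas ETV5, an ETS factor, fell by 2.31 ± 0.60. DUSP6, a phosphatase of ERK, had 56.0 and 33.8 CPM at BL and at most 24.7 CPM in the other 14 samples. Its value at BL against the 7 earlier stages passed the test (log2 change 3.33 ± 0.91, limma adjusted p = 0.0134) but not without BL replicate 1 (0.150) or replicate 2 (0.106). Neither its stage effect (limma adjusted p = 0.0561) nor its change from CM to BL (0.101) passed. Of 11 genes of that list tested at BL against the earlier stages, DUSP6 was the 1 higher, beside 18.3% of all loci, and SPRY1 and RASA1, a RAS inhibitor, were lower, beside 11.6%.

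**Figure D3:**
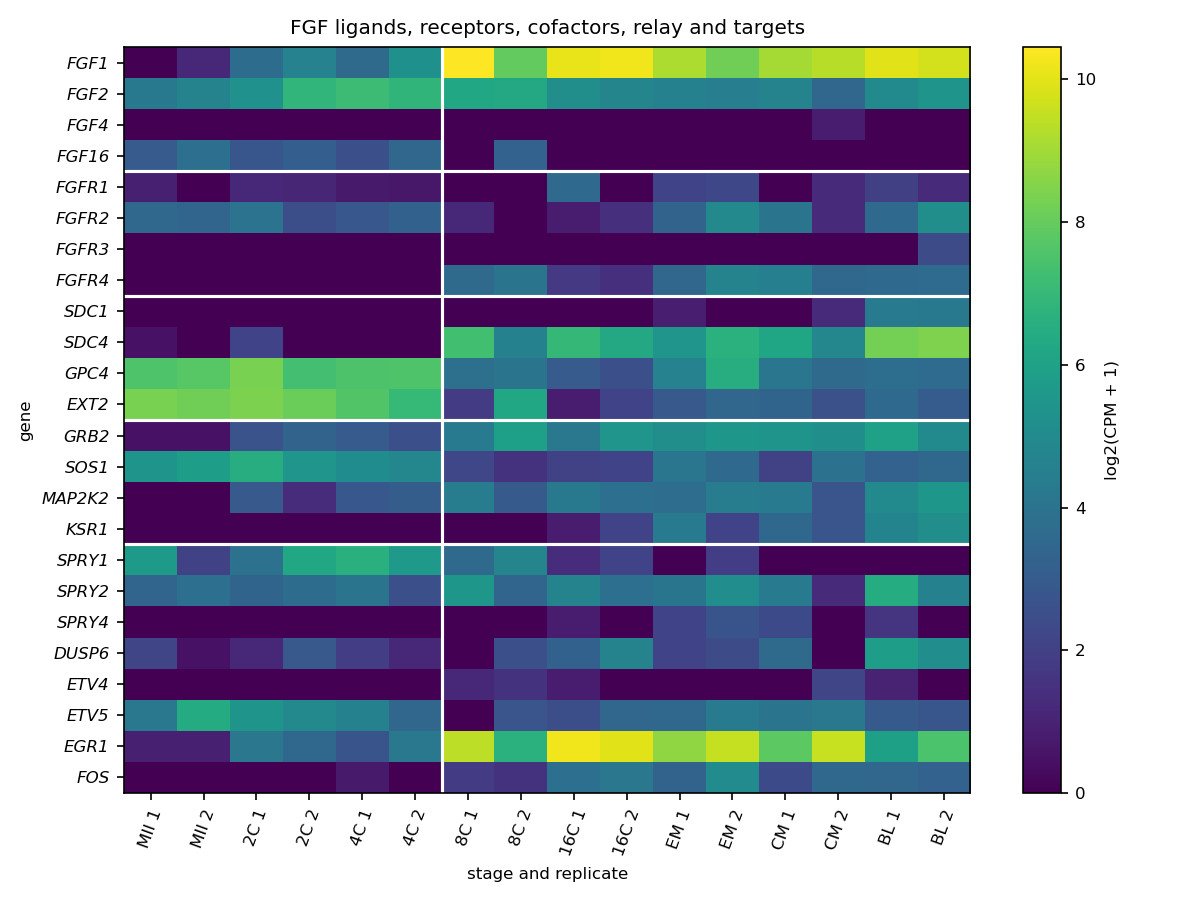
Level as log2(CPM + 1) (colour) of genes of the FGF pathway (vertical axis) in each sample (horizontal axis). White lines part, from the top, ligands, receptors, cofactors, relay genes and targets, and the samples before and after EGA. FGF1, FGFR4, SDC4 and EGR1 are higher after EGA, GPC4 and SOS1 lower, and SDC1 reached 18.7 and 17.6 CPM in the BL samples.

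LAMC1, the gamma chain shared by most laminins, was highest before EGA. It had 21.3 and 24.5 CPM at MII, 43.9 and 40.5 at 2C, 40.3 and 28.9 at 4C, and then 24.7 and 4.81 at 8C and 6.18 and 3.29 at 16C. It had 8.17 and 9.97 CPM at EM, 23.6 and 3.57 at CM, and 20.6 and 38.2 at BL. The level was lowest at 16C, and the samples after EGA overlapped those before it at 8C, CM and BL. For comparison, 9.7% of loci tested had all samples after EGA below all before. Pooled, 412 reads before EGA became 138 after it, a CPM ratio of 0.385 (95% interval 0.315 to 0.468). LAMA1, the alpha chain of laminin-111, had 15 reads in 7 samples and never exceeded 4.95 CPM. Its exact two-sided permutation p over EGA was 0.563.

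Both other laminin chains with enough reads to be tested rose over EGA, beside 36.9% of all loci. LAMB1, the beta chain, lay between 1.84 and 12.7 CPM before EGA and between 27.9 and 159.6 CPM after it (log2 change 3.43 ± 0.49 SE, limma adjusted p = 2.908e-06). LAMA5, the alpha chain of laminin-511, rose from 140 to 541.5 CPM before EGA to between 1170 and 2528 CPM after it (1.76 ± 0.36, adjusted p = 0.000194). Of the 8 other laminin chains found, 3 had no read in any sample. LAMA3, too low to be tested, had stage means of 2.21 to 5.89 CPM before EGA and at most 0.409 CPM after it. The rise of LAMA5 from 4C to 8C (2.04 ± 0.57, adjusted p = 0.0117) was lost without 4C replicate 1 (0.0726), 4C replicate 2 (0.0630) or 8C replicate 1 (0.0871). The LAMB1 rise at that step (3.56 ± 0.64) held in all 25 alternatives.

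FN1, which encodes fibronectin, rose over EGA and was highest at BL. It had 0.443 and 0 CPM at MII, 2.00 and 4.14 at 2C, and 9.72 and 4.92 at 4C. It had 114 and 0 CPM at 8C, 110.5 and 306 at 16C (again higher in the replicate with more KRT8), 87.4 and 172 at EM, 242 and 19.3 at CM, and 447 and 452 at BL. The samples of 8C and those of CM were far apart, whereas the BL samples lay close together and above all others. 8C replicate 2, with no FN1 read among 1039587, was the sample with 1466 CPM of oocyte markers, and the part of that in the FN1 value was not tested. Pooled over EGA, 40 reads became 1864, a CPM ratio of 53.6 (95% counting interval 39.2 to 75.3). That interval leaves out the spread between embryos, which was wide at 8C and CM.

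Of 8 matrix receptor genes tested over EGA, 2 rose and 3 fell, near the 66.8% of all loci that passed, with a median log2 change of -0.10. ITGA5, the alpha chain of the classical fibronectin receptor, had 1 read before EGA and 7.69 to 300.4 CPM after it (log2 change 6.40 ± 0.62 SE, limma adjusted p = 1.553e-08). ITGB1, its beta chain, fell by 1.76 ± 0.39 on the log2 scale (adjusted p = 0.000499) and was named after its values were seen. ITGB3, another integrin beta chain, rose by 1.94 ± 0.41. FERMT2, a kindlin that activates integrins, fell by 3.04 ± 0.65 over EGA and had 120 and 64.6 CPM again at BL.

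**Figure D4:**
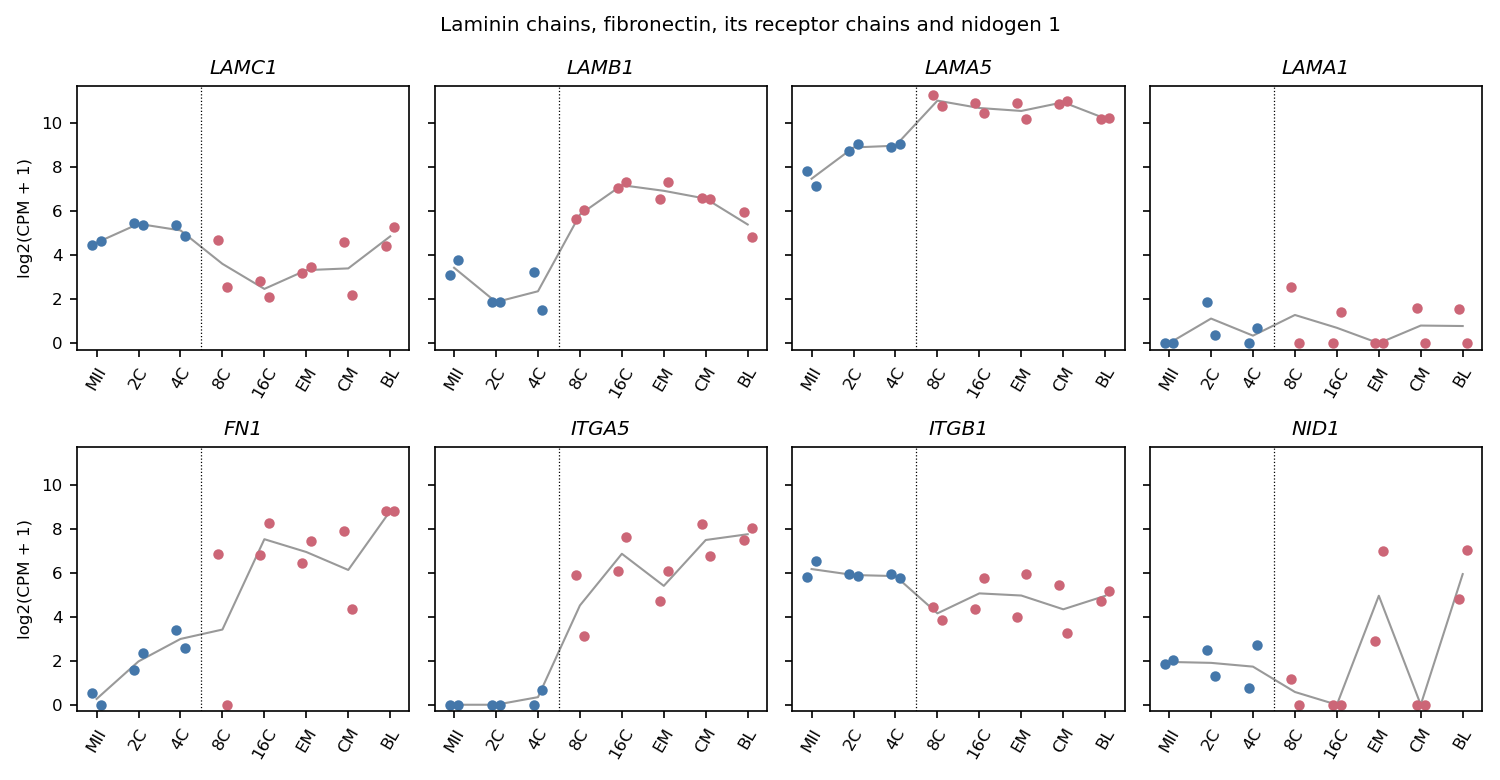
Level as log2(CPM + 1) (vertical axis) by stage (horizontal axis) of laminin chains, fibronectin, its receptor chains ITGA5 and ITGB1, and nidogen 1. Points are single samples (blue before EGA, red after it), grey lines join stage means and the dotted line marks EGA. LAMC1 and ITGB1 fell after EGA while LAMB1, LAMA5, FN1 and ITGA5 rose.

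Stages were compared by limma on log2(deposited value + 1) over all loci with enough reads, and 5 of the 10 genes had enough: GATA6, PDGFRA, FGFR2, LAMC1 and FN1. The other 5 are described above by their reads and, except for FGF4, an exact permutation test, so counts below do not cover all 10. The labels do not say which samples share a dam or a collection, so p-values measure the spread between these samples. The added 1 understates the change of genes with few reads. Over the 8 stages, all 5 passed (limma adjusted p from 4.89e-07 for PDGFRA to 0.0183 for LAMC1), beside 66.7% of the 9670 loci tested. The FGFR2 call (0.0155) was lost with edgeR (0.0523), and the LAMC1 call without 16C replicate 2 (0.0553) or 4C replicate 1 (0.0504).

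Over EGA, 4 of the 5 passed, beside 66.8% of loci: 3 were higher, beside 36.9%, and 1 lower, beside 29.9%. Log2 changes were 6.90 ± 0.44 SE for GATA6 (limma adjusted p = 7.751e-11), 5.77 ± 0.43 for PDGFRA (3.532e-10), 4.68 ± 0.99 for FN1 (0.000292, and 5.42 without 8C replicate 2) and -1.99 ± 0.50 for LAMC1 (0.00135). FGFR2 changed by -1.20 ± 0.69 (0.130), which became -1.496 (0.0437) without BL replicate 2. In CPM the FGFR2 mean was 9.01 ± 3.45 before and 10.5 ± 12.7 after EGA (SD, n = 6 and 10), and the pooled ratio was 1.29 (95% interval 0.986 to 1.69, and 0.859 without EM replicate 2), so no direction is given for FGFR2 over EGA. The median change of all loci was 0.23, or 0.65 with scaling to total reads. GATA6, PDGFRA and FN1 were kept for testing by the samples after EGA and would not have been by those before, so their count is a description and supports nothing. Without 8C replicate 2, the same number of the 5 passed.

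From 4C to 8C, the first step across EGA, 3 of the 5 passed, beside 36.8% of loci. GATA6 (7.17 ± 0.77 SE, limma adjusted p = 1.811e-05) and PDGFRA (5.54 ± 0.62, 2.498e-05) were higher, beside 17.7%, and FGFR2 was lower, as given above, beside 19.1%. Without 8C replicate 2, GATA6 changed by 7.43 and PDGFRA by 5.69, and both still passed. FN1 did not pass (0.34 ± 1.58, adjusted p = 0.893) and turned with the library left out. It was 4.03 (0.00917) without 8C replicate 2, -3.35 (0.0403) without 8C replicate 1, and -0.11 without 4C replicate 2. With a sample left out its stage has 1 sample, which limma takes to vary like the other stages. LAMC1 changed by -1.55 ± 0.86 (0.168), which became -2.78 (0.0394) without 8C replicate 1 and -0.32 (0.824) without 8C replicate 2.

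From CM to BL, a step at which the trophectoderm list went from 245 CPM in CM replicate 1 and 109 in replicate 2 to 1464 and 1322 CPM in the BL replicates, none of the 5 passed in limma, edgeR or DESeq2, and none had an unadjusted p under 0.05 in these 3 fits. Of all loci 4.42% passed, 2.92% higher and 1.5% lower. The largest estimate was that of FN1 (2.52 ± 1.58 SE, limma adjusted p = 0.440), followed by FGFR2 (1.61 ± 0.96) and LAMC1 (1.32 ± 0.86). These 3 estimates moved with the CM sample left out: without CM replicate 1 they were 4.18, 2.92 and 2.43, and without CM replicate 2 they were 0.86, 0.31 and 0.21. CM replicate 1, the sample with more FN1, FGFR2 and LAMC1, also had more KRT8 (28.7 and 0 CPM in replicates 1 and 2), KRT18 (51.2 and 0), GATA2 (28.7 and 0.714) and GATA3 (11.3 and 1.43) of the trophectoderm list, and the part of these was not tested. FGFR2 was also moved by the BL samples, to 2.46 without replicate 1 and 0.77 without replicate 2, and LAMC1 to 0.86 without BL replicate 2. None of these passed after adjustment, although 3 of the 7 genes with enough reads had an unadjusted p under 0.05 in limma without CM replicate 1. PDGFRA changed by 0.85 ± 0.62 and GATA6 by -0.71 ± 0.77.

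Against the mean of the 7 earlier stages, BL was higher in 3 of the 5, beside 18.3% of loci, with 29.8% passing in either direction. These were PDGFRA (3.79 ± 0.47 SE, limma adjusted p = 7.501e-05), FN1 (4.54 ± 1.19, 0.0112) and GATA6 (2.53 ± 0.58, 0.00544). The call of GATA6 was lost without BL replicate 1 (0.0697) or 2 (0.0913), as was that of FN1 (0.115 and 0.139). For all 3 genes the earlier stages include those before EGA, which held 1 read of PDGFRA, 12 of GATA6 and 40 of FN1. These changes therefore include the step at EGA, and none of the 3 passed from CM to BL. The BL samples of GATA6 lay below those of EM and CM.

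**Figure D5:**
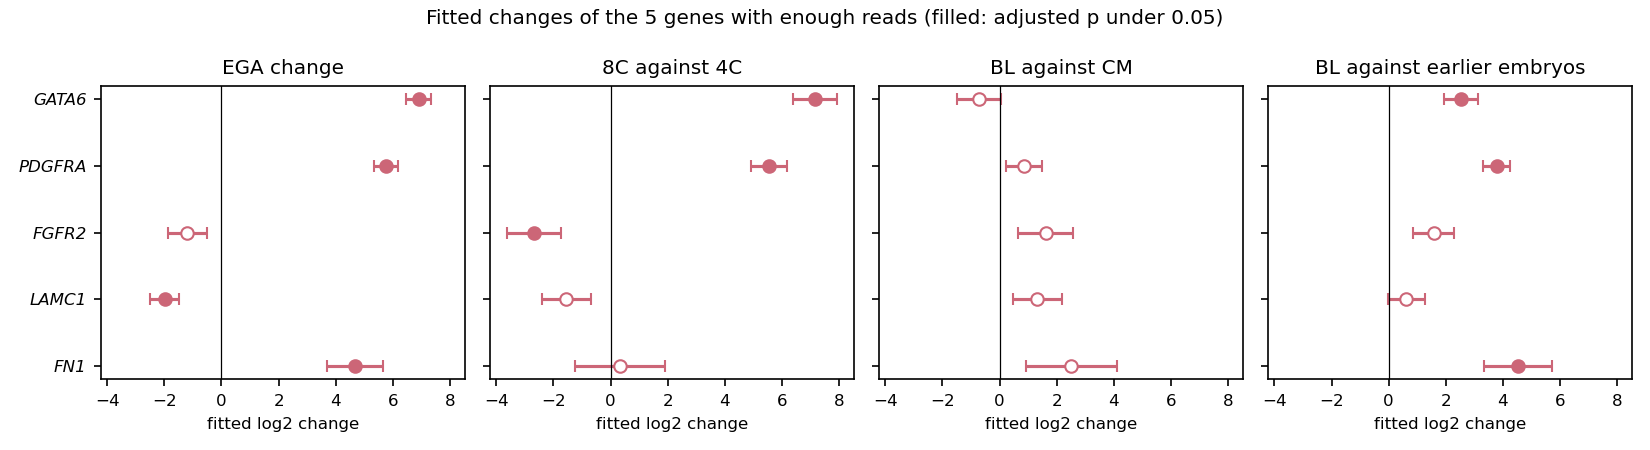
Fitted log2 change (horizontal axis, points with SE bars) of the 5 genes with enough reads (vertical axis) in 4 comparisons. Filled points passed an adjusted p of 0.05 (limma). GATA6 and PDGFRA passed in 3 of the 4, and no gene passed between CM and BL.

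Other genes of the hypoblast were followed as a list of 22, of which 6 had no read in any sample. Of 7 tested over EGA, 6 rose and none fell, beside 36.9% of all loci higher and 29.9% lower, but 5 of the 7 would not have been kept by the samples before EGA alone. SPARC, a matrix protein of endoderm, rose by 7.495 ± 0.44 SE (limma adjusted p = 2.181e-11) and was at 157 to 614 CPM in every sample after EGA. OTX2, a homeobox factor, rose by 4.26 ± 0.73, DAB2, an endocytic adaptor, by 4.12 ± 0.71, and RSPO3, a WNT agonist, by 4.00 ± 0.76. At 8C, OTX2 had 63.1 CPM in replicate 1 and 0 in replicate 2, and DAB2 had 70.5 and 1.92 CPM, the same order of the replicates as for FN1. HNF4A, an endoderm factor, had 15.7 and 17.6 CPM at BL and at most 3.29 CPM earlier. With 28 of its 31 reads at BL it was kept for testing through BL alone, so that a change from CM could only be upward (3.68 ± 0.71, limma adjusted p = 0.00671), a call lost with edgeR (0.276) and without BL replicate 2 (0.0732) or CM replicate 2 (0.131). FOXA2, another endoderm factor, had 13 reads, all between 8C and CM, and none at BL. SOX7 was listed at 0 in all samples.

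Of 16 basement membrane and matrix genes listed beyond the laminins, 6 had enough reads to be tested. From CM to BL, 3 of these passed as higher, beside 2.92% of all loci, but all 3 were kept for testing through BL alone, as were 5.34% of all loci, so the count is a description. NID1, nidogen 1, which links laminin to collagen IV, was at 0 in both CM samples and at 27.5 and 132 CPM at BL (6.02 ± 1.15 SE, limma adjusted p = 0.00595), at least 55-fold higher in pooled reads against 3 reads over the CM samples. It had also reached 127 CPM in EM replicate 2, beside 6.54 in replicate 1. NID2, the other nidogen, was present at every stage, with means of 825 CPM at CM and 909 at BL, and did not pass at this step. Of the collagen IV chains in the hypoblast list, COL4A1 had means of 5.33 CPM at CM and 13.95 at BL and did not pass. COL4A2 had 13 reads in the series. AGRN, a heparan sulfate proteoglycan, had 20.6 and 38.2 CPM at BL (4.40 ± 0.92, adjusted p = 0.0115), and COL18A1 had 7.86 and 14.7 CPM there and 0 in the other 14 samples (3.63 ± 0.58, 0.0018), at least 8.39-fold higher in pooled reads. The NID1 call was lost without BL replicate 2 (0.130) or CM replicate 2 (0.0682), and that of AGRN without BL replicate 2 (0.144) or CM replicate 2 (0.150). With edgeR the calls of AGRN (0.190) and COL18A1 (0.249) were lost. FERMT2 rose at the same step (4.28 ± 0.90, 0.0121), a call lost without BL replicate 1 (0.105), BL replicate 2 (0.0815) or CM replicate 2 (0.205). The part of the trophectoderm list, higher at BL as given above, in these changes was not tested.

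The loci whose levels followed each gene most closely were found by Pearson r of log2(value + 1) over the 16 samples, a description of samples that share their stage. For GATA6 they were STARD7 (0.982), RBM47 and DHX9 (0.98 each), and for PDGFRA CLDN6 (0.99), FOLR1 (0.989) and TXN2 (0.985). CLDN6, a claudin of epithelial junctions, had 307 and 292 CPM at BL, and FOLR1, a folate receptor, had 257 and 248. GATA6 and PDGFRA followed each other with an r of 0.943. For FN1 they were FBLN2 (0.963), CAPZB (0.959) and PM20D1 (0.956). FBLN2, fibulin 2, is itself a matrix protein and had 17.3 and 0 CPM at 8C, 26.7 and 2.86 at CM, and 87.4 and 95.4 at BL, so that it was low in the same 8C and CM samples as FN1. For LAMC1 they were CAPRIN2 (0.906), ME2 (0.901) and CDH3 (0.891), which had a mean of at most 3.44 CPM each at 8C and 0 at 16C. For FGFR2 they were SLC25A40 (0.80), ATE1 (0.796) and LDB1 (0.788). ATE1 is the next coding gene after FGFR2 in the RefSeq annotation of assembly ARS-UCD2.0. Its mean level was 8.35 CPM at MII, 0 at 8C, 0.386 at 16C and 11.8 at BL, and whether reads of the neighbours were counted apart was not tested.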

How the data were processed

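The authors isolated RNA from single oocytes and embryos with TRIzol, amplified it in 2 rounds and sequenced it on a SOLiD platform. The submitters' processing notes name cutadapt, FastQC, TopHat, Cufflinks and HTSeq. Versions, the genome build and the strand setting are not given in the sources used here. The values that the authors deposited are a signal, read counts per locus divided by 1 size factor per sample. Dividing each value above 0 by the smallest such value of its sample gave a whole number in 100% of cases (tolerance 0.02), and these numbers were taken as reads.

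Levels are CPM of these reads, as mean ± SD (n = 2). Loci were kept by filterByExpr of edgeR 4.0.16 and tested by limma 3.58.1 (R 4.3.3, empirical Bayes with a trend) on the log2 scale after 1 was added to each deposited value. Adjustment was by Benjamini and Hochberg over all loci, with 0.05 as the threshold. SEs are from limma. One model held 8 stages, another 2 periods. Genes with too few reads were compared by 10 exact permutation tests. Pooled ratios have exact 95% binomial intervals, which treat reads as independent and leave out the spread between samples. Samples were left out of these ratios after the data were seen. edgeR and DESeq2 1.42.0 ran on the recovered reads as alternatives. The tests were also run on simulated counts with a single fixed spread, unlike that of these samples, and no result here rests on that run.

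The 10 genes and the gene lists were chosen with earlier results of these data known. Of a list, at most 4 genes that passed are named, those with the largest absolute change in the comparison described, beside defining members. The replicate numbers were not taken to pair samples: of 28 pairs of stages, 1 had a correlation of deviations above 0.1 and 2 below -0.1 (-0.296 to 0.140, median 0.00709).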

Additional observations from a re-analysis of the deposited data

Results flagged for a closer look

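In 18 groups examined, 8 values stood far from the rest of their group by Dixon's test of the highest or lowest sample. For normally distributed values, chance alone gives about 1 in 20 groups, but these are counts mostly at 0, for which that rate does not hold. A single read among zeros, as in PDGFRA, GATA4 and FGF4, meets the test whatever its level, and all 8 values rest on few reads. Before EGA, GATA6 had 5.99 CPM (9 reads) in 2C replicate 1 beside at most 0.877 CPM in the other 5 samples, and LAMA1 had 2.66 CPM (4 reads) in the same embryo. That embryo also had OVGP1, an oviduct gene, at 75.2 CPM (113 reads) and DCN at 11.3 CPM (17 reads), and their part was not tested. PDGFRA had 0.296 CPM in 2C replicate 2, a single read. After EGA, SOX17 had 11.5 CPM (7 reads) in 16C replicate 2, the sample with more KRT8, KRT18 and EPCAM, beside at most 2.94 CPM, and FGFR1 had 10.8 CPM (14 reads) in 16C replicate 1 beside at most 3.88 CPM. LAMA1 had 4.95 CPM (4 reads) in 8C replicate 1. GATA4 had 0.982 CPM in BL replicate 1 and FGF4 had 0.714 CPM in CM replicate 2, each a single read.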

How the results depend on the processing

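Of 1859 results of single genes under alternative settings, 1799 kept direction and side of the threshold, 47 lost the threshold, 10 gained it and 3 turned. The 3 that turned were the FN1 change from 4C to 8C, at -0.0877 with a pseudocount of 0.5 and -0.11 without 4C replicate 2. With a sample left out it ran from -3.35 (without 8C replicate 1) to 4.03 (without 8C replicate 2). The count of loci called over EGA was 4619 and became 7075 with no filter. From 4C to 8C it was 3560, became 1952 with those stages fitted alone, and ran from 1935 to 3844 with a sample left out, the lowest values being 1935 and 2003 without 4C replicate 2 and 1. From CM to BL it was 427, became 154 with edgeR, and ran from 132 (without CM replicate 2) to 670 (without 8C replicate 2). It was 137 without BL replicate 2 and 660 without 8C replicate 1. For BL against earlier stages it was 2886 and ran from 687 to 3616, with 687 and 1202 without BL replicate 2 and 1. The share of calls that were higher was 48.1% from 4C to 8C (58.5% with DESeq2, 60.5% with edgeR), and 66.0% from CM to BL (49.4% and 46.8%). With the replicate number as a block, 4579 loci were called over EGA, and no call changed for the 5 genes that had enough reads to be tested. GATA4, FGF4, SOX17, FGFR1 and LAMA1 had too few reads for the model, and the part of depth, counting or absence in that was not tested.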
